A study of Schizosaccharomyces pombe with 10 samples.

Results

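The non-coding RNAs described here are 48 features that were nearly silent in untreated fission yeast (Schizosaccharomyces pombe) and gained reads under at least 1 DNA-damaging agent. They were chosen by their read counts. A member has an ID of the form SPNCRNA.N with N of 200 or more (SPNCRNA.214 was left out), 20 or fewer counts summed over the 2 untreated libraries, and 80 or more counts summed over the 2 libraries of at least 1 agent. Of 6661 features in the count table, 1374 had such an ID, 546 of these met the untreated limit, and 48 met both. The rise over untreated cells is therefore part of the choice and is given as a description, with no test.

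The cells were strain PT286, which the series calls wild type and whose alleles the labels do not give, grown at 30 °C in YES, a rich medium. The treated cultures received 20 µM camptothecin (CPT), which traps topoisomerase I on DNA, 10 mM hydroxyurea (HU), which inhibits ribonucleotide reductase, 0.02% methyl methanesulfonate (MMS), which alkylates DNA, or 5 µg/mL phleomycin (PLM), which breaks DNA strands, and were harvested after 8 h. Untreated cells were the common reference; the labels do not say that they were kept for the same time after the change of medium. Each of the 5 groups had 2 libraries of total RNA. Nothing in the labels says that the 2 came from separate cultures, so p-values measure the spread between these libraries. Library totals ran from 37301356 to 48598533 counts. Of the 5734 features tested, 35.2% to 42.2% were higher and 35.9% to 40.9% lower than in untreated cells, depending on the agent, at an adjusted p under 0.05, so changed features were common throughout.

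Fission yeast transcribes much of its genome outside the coding sequences, and many of these RNAs run antisense to genes. Many are kept low by the nuclear exosome, an RNA-degrading complex guided by the helicase Mtr4 and the MTREC complex, by the RNA interference and histone H3 lysine 9 methylation machinery, and by chromatin factors that close cryptic start sites. Few of the RNAs have a known function, and the number in an ID is a catalogue number that says nothing of function. The names prl105 to prl108 belong to a class of polyadenylated RNAs without a long reading frame, and meu denotes a transcript raised in meiosis.

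In the RefSeq annotation of assembly ASM294v3, matched by ID, 47 of the 48 were found; SPNCRNA.860 was not and is described by its counts alone. Their annotated lengths ran from 308 to 3150 bases (median 1260). The median was 929 in the silent features of the same numbering that are not members. It was 1130 in all features of that numbering. The overlap shares below were not adjusted for length. Overlaps were sought only among the features of the count table found in that annotation, so its other genes were not checked. Of the 47 members, 37 (78.7%) overlapped a protein-coding gene on the opposite strand, against 62.1% of the silent features of the same numbering that are not members and 62.8% of all features of that numbering. Other matched features of the count table covered at least 75% of the length of 32 members (68.1%), against 74.4% and 51.2% in those 2 sets. Whether the authors' counting used the strand is not given in the sources used here, so the reads of a covered member and of its antisense partner may not be told apart. Only 6 members overlapped no other matched feature of the count table: prl105 (SPNCRNA.1703), prl106 (SPNCRNA.1706), SPNCRNA.313, SPNCRNA.392, SPNCRNA.451 and SPNCRNA.480. No member had a near-identical copy elsewhere in that assembly (95% identity or more over at least 50% of its length).

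Members free of overlap have no partner among the matched features whose reads could be mixed with theirs. Features outside that set were not checked. The starts of 4 of these members are shown: 250 bases before to 50 bases after the annotated start, 5′ to 3′ on the member's strand, from RefSeq ASM294v3. The build behind the counts is not named, so only chromosome and strand are given. Capitals mark the searched motifs, read on either strand: the TATA motif (TATAAA), the stress element (CCCCTC) and the heat shock element (GAANNTTC). prl105 lies on chromosome I, plus strand, and was switched on by PLM; prl106 lies on chromosome III, minus strand, and was switched on by HU, MMS and PLM; SPNCRNA.313 (chromosome II, plus strand) and SPNCRNA.451 (chromosome III, plus strand) were switched on by HU.
prl105: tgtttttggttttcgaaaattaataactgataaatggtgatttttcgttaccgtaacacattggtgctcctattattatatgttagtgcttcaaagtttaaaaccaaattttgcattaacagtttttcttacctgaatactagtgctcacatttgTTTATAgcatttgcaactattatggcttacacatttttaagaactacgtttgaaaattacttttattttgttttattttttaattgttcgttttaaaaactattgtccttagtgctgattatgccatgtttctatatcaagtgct
prl106: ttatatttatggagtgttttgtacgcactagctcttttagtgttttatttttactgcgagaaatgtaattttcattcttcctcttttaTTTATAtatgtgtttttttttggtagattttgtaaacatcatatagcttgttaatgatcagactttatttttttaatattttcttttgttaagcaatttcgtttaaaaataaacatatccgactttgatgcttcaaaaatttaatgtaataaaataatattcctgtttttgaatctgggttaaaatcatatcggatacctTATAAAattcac
SPNCRNA.313: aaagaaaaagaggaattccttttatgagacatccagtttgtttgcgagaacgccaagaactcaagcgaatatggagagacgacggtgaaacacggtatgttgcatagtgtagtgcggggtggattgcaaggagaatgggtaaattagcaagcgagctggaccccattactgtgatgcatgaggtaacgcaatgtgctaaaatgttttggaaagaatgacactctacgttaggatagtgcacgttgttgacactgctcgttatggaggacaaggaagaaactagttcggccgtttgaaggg
SPNCRNA.451: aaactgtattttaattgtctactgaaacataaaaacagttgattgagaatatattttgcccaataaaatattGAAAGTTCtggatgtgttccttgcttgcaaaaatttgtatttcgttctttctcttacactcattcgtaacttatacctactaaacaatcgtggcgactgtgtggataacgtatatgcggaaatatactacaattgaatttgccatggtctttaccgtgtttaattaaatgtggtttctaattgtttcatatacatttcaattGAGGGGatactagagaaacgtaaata

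Both prl starts shown hold the TATA motif, while the windows of prl107 and prl108 hold none of the 7 motifs searched. SPNCRNA.451 holds the stress element and the heat shock element, and the window of SPNCRNA.313 holds none of the 7. Over all 47 members, the TATA motif stood in 15 windows (31.9%), against 45.2% of the windows of all 12643 annotated genes. The heat shock element stood in 8 (17%) against 11.9%, the stress element in 3 (6.38%) against 2.48%, and the Atf1 motif TGACGT in 3 (6.38%) against 5.47%. The remaining motifs were the forkhead motif GTAAACAAA in 2 members (4.26% against 3.91%), the MBF motif ACGCGT in 1 (2.13% against 2.45%) and the Pap1 motif TTACTAA in 1 (2.13% against 11.4%). In the 488 windows of silent features of this numbering, members included, the TATA motif stood in 44.5%. There the heat shock element stood in 10.5%, the stress element in 3.48% and the Atf1 motif in 6.56%. The forkhead, MBF and Pap1 motifs stood in 4.3%, 1.84% and 7.79% of them. These shares are descriptions of letters in a window and were not tested; none of the motifs contains another.

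PLM switched on 38 of the 48 members, MMS 19, HU 16 and CPT 5, where switched on means 80 or more counts over the agent's 2 libraries. As shares of the 546 silent features of this numbering these are 6.96%, 3.48%, 2.93% and 0.916%. Among the other 583 features with 20 or fewer untreated counts, the same threshold was reached by 35 (6%) in PLM, 16 (2.74%) in MMS, 19 (3.26%) in HU and 9 (1.54%) in CPT. PLM also came first among those features, so its lead is not shown to be particular to the members. The CPT count rests on the untreated limit: it was 9 without the first and 10 without the second untreated library, with the limits halved for the group left with 1 library. By their highest mean, 34 members peaked in PLM, 10 in MMS, 2 in HU and 2 in CPT.

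Of the 48 members, 29 reached the threshold in 1 agent, 10 in 2, 7 in 3 and 2 in all 4. The largest combination was PLM alone, with 19 members, followed by HU, MMS and PLM together with 6 and MMS alone with 6. HU with PLM had 5 and MMS with PLM had 5. CPT alone had 2, HU alone had 2, all 4 agents had 2, and CPT, HU and PLM together had 1. A threshold hides lower rises: both libraries of the agent lay above both untreated libraries for 48 members in PLM, 46 in MMS, 44 in HU and 27 in CPT. By that measure 23 members stood above untreated cells in 4 agents, 23 in 3 and 2 in 2. Members were chosen for low untreated counts and a rise, which favours this measure. The share of all features that met it is not given here, so these counts are a description only.

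**Figure D1:**
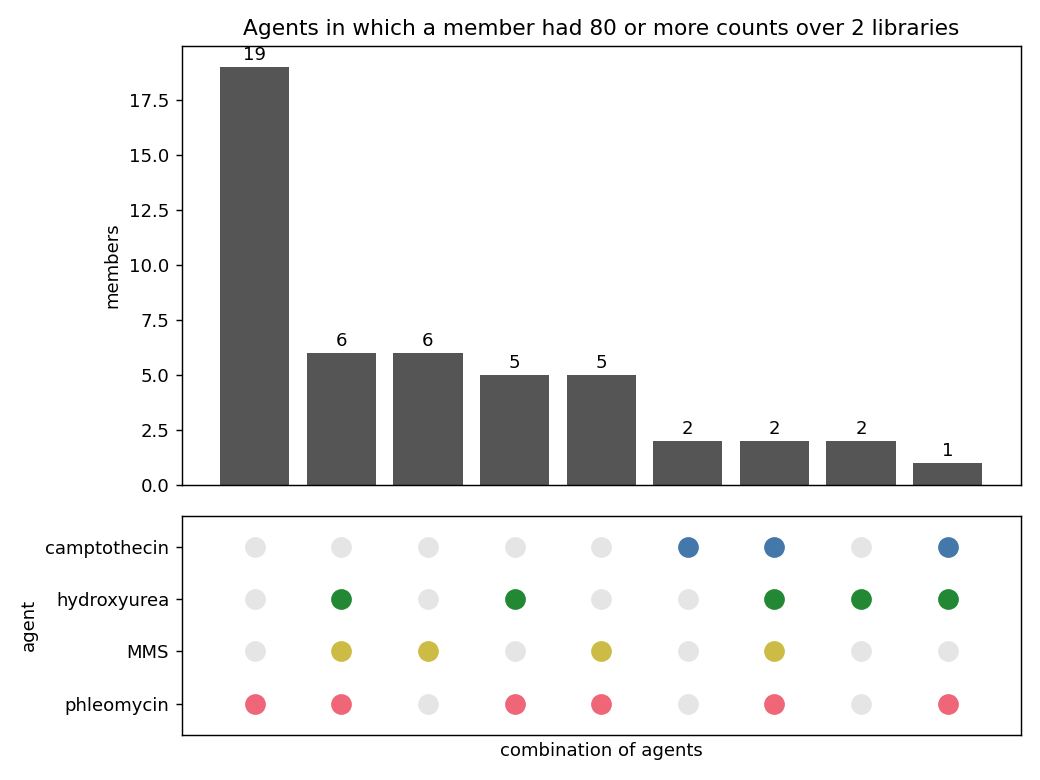
Number of members (bars, left axis) for each combination of agents in which a member had 80 or more counts over 2 libraries; coloured dots below mark the agents of the combination. The PLM-only bar is the tallest, with 19 members.

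Summed over the 48 members, the level was 22.7 and 24.0 CPM (counts scaled to library size with TMM factors) in the 2 CPT libraries, 39.1 and 36.98 in HU, 49.1 and 48.3 in MMS, 76.8 and 80.7 in PLM, and 7.01 and 7.51 in untreated cells. Every group kept its place in this order in both of its libraries. The 498 silent features that are not members summed to 17.02 and 18.2 CPM in CPT, 28.1 and 26.6 in HU, 26.9 and 25.02 in MMS, 36.2 and 34.4 in PLM, and 10.4 and 9.95 in untreated cells. Of the 546 silent features, 231 (42.3%) had 0 counts in all 10 libraries. Median member levels were 0.352, 0.671, 0.836 and 1.24 CPM in CPT, HU, MMS and PLM, against 0.163 CPM in untreated cells.

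**Figure D2:**
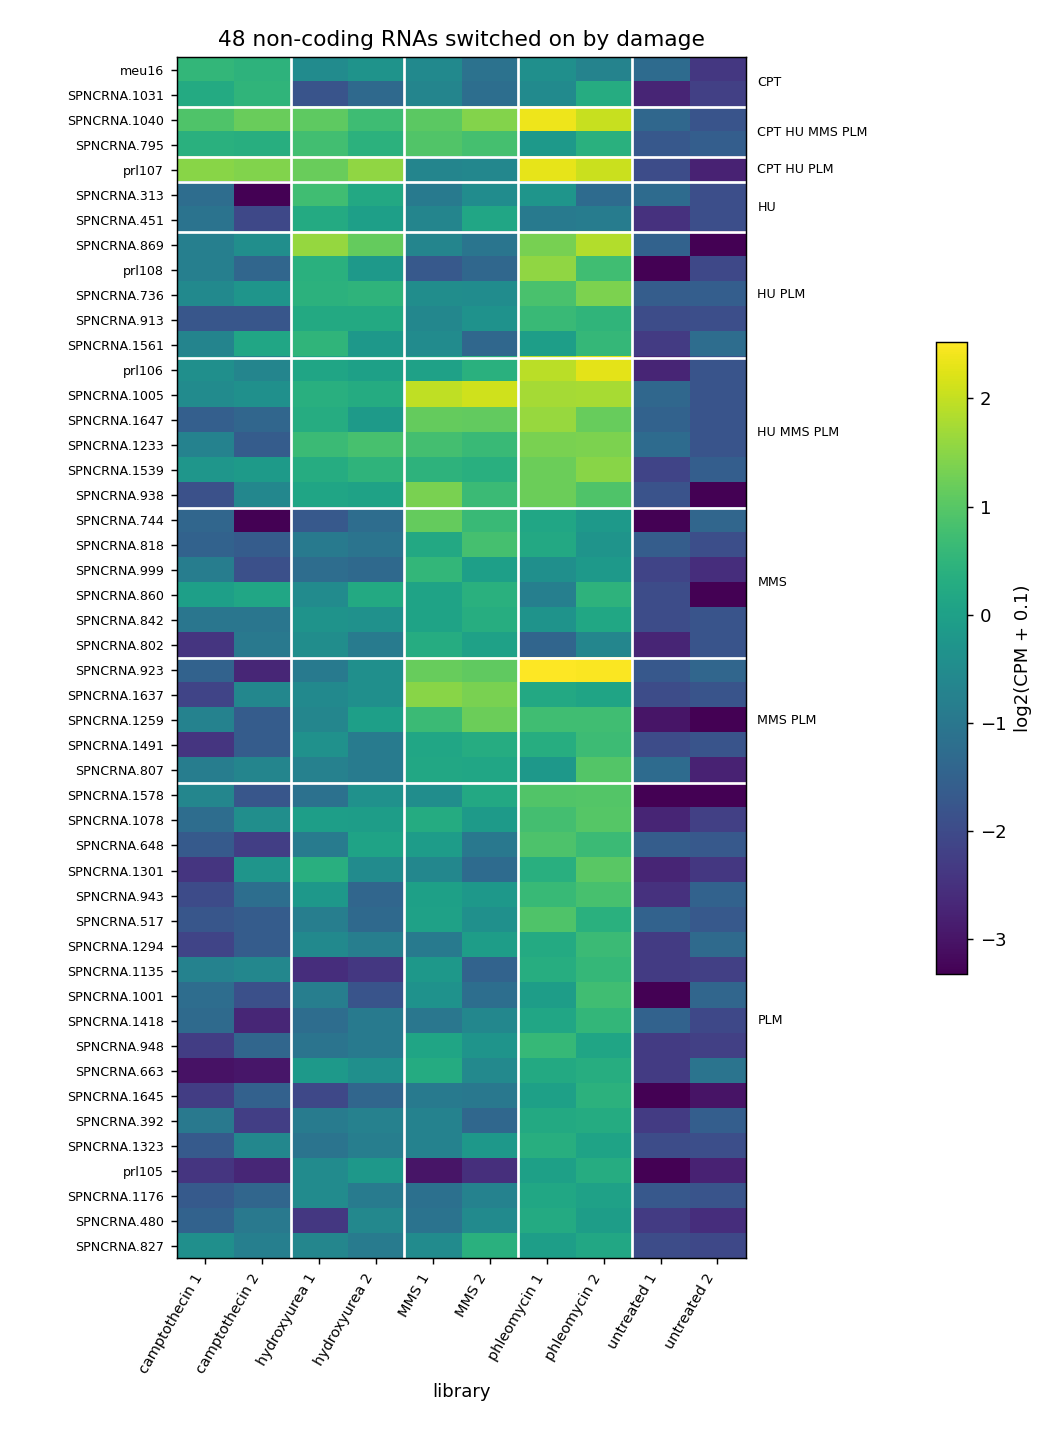
Level of each of the 48 members (rows) in each of the 10 libraries (columns) on a colour scale of log2(CPM + 0.1), rows grouped by the agents that switched them on. The PLM columns are the most filled, the untreated columns the least.

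The members differed widely in size of response. Per kilobase of annotated length, the level in the highest agent ran from 0.375 CPM (SPNCRNA.1645, in PLM) to 7.77 CPM (SPNCRNA.923, in PLM), with a median of 1.44. The level in the highest agent was 1.02 to 3.96 times that in the next agent (median 1.72). Counts were low: in the member's highest agent, the 2 libraries differed beyond binomial counting error in 16 of 48 members, with a median ratio of 1.25 and a maximum of 2.39. An exact binomial test of the split between the 2 libraries, given their totals, passed an unadjusted 0.05 in 63 of 239 pairs (26.4%), so counting error alone understates the spread of single members.

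Differences between agents in the members below are fitted log2 values with their standard errors from one edgeR model of all features. They are given as descriptions with no test, because the members and their agents were chosen from the same counts.

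SPNCRNA.1040 and SPNCRNA.795 were the 2 members switched on by all 4 agents. SPNCRNA.1040 had 83 and 78 counts in CPT, 86 and 66 in HU, 75 and 110 in MMS, 206 and 177 in PLM, and 11 and 8 in untreated cells. Its PLM libraries stood above all others, by 1.36 ± 0.25 (log2, SE) over HU and 0.97 ± 0.25 over MMS. SPNCRNA.795 was flatter, with 56 and 42 counts in CPT, 68 and 54 in HU, 69 and 69 in MMS, 32 and 54 in PLM, and 8 and 10 in untreated cells. Its widest gap was PLM over MMS, at -0.77 ± 0.33 (log2, SE).

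prl107 (SPNCRNA.1704) was switched on by CPT, HU and PLM but not by MMS. It had 124 and 93 counts in CPT, 94 and 122 in HU, 20 and 23 in MMS, 196 and 181 in PLM, and 6 and 2 in untreated cells. CPT and HU overlapped, PLM lay above them, and MMS lay below both while still above untreated cells. The ratio to untreated cells was 45.4 in PLM (95% counting interval 22.8 to 106). The log2 difference was -2.29 ± 0.32 for MMS over CPT, -2.22 ± 0.32 for MMS over HU and 3.04 ± 0.31 for PLM over MMS (SE).

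The 6 members shared by HU, MMS and PLM were SPNCRNA.1706 (prl106), SPNCRNA.1005, SPNCRNA.1647, SPNCRNA.1233, SPNCRNA.1539 and SPNCRNA.938. prl106 had 30 and 19 counts in CPT, 42 and 39 in HU, 35 and 51 in MMS, 149 and 212 in PLM, and 2 and 8 in untreated cells. PLM stood apart, at 1.98 ± 0.29 over MMS and 2.16 ± 0.30 over HU on the log2 scale. SPNCRNA.1005 instead had its highest counts in MMS, 144 and 174, with 129 and 146 in PLM, 51 and 48 in HU, 28 and 24 in CPT, and 11 and 8 in untreated cells. On the CPM scale its MMS libraries (3.80 and 4.16) lay above its PLM libraries (3.21 and 3.28). The log2 difference was small, -0.29 ± 0.24 for PLM over MMS (SE). Both agents lay above HU. The 6 had library counts of 8 to 34 in CPT, which reached no member's threshold there, against 0 to 12 in untreated cells.

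HU and PLM shared SPNCRNA.869, SPNCRNA.1705 (prl108), SPNCRNA.736, SPNCRNA.913 and SPNCRNA.1561. SPNCRNA.869 had 22 and 23 counts in CPT, 126 and 90 in HU, 20 and 16 in MMS, 96 and 155 in PLM, and 10 and 0 in untreated cells; HU and PLM overlapped, and the log2 difference of MMS over HU was -2.47 ± 0.39 (SE). prl108 had 22 and 10 counts in CPT, 52 and 34 in HU, 8 and 12 in MMS, 114 and 70 in PLM, and 0 and 6 in untreated cells. Its MMS and CPT libraries overlapped, PLM and HU lay above both, and PLM exceeded MMS by 3.12 ± 0.47.

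MMS and PLM shared SPNCRNA.923, SPNCRNA.1637, SPNCRNA.1259, SPNCRNA.1491 and SPNCRNA.807. SPNCRNA.923 had the highest total of any member in a single agent, with 227 and 244 counts in PLM; it had 81 and 85 in MMS, 18 and 28 in HU, 12 and 2 in CPT, and 8 and 12 in untreated cells. Its CPT counts overlapped those of untreated cells, and PLM exceeded CPT by 5.01 ± 0.38 and HU by 3.37 ± 0.31 on the log2 scale. SPNCRNA.1637 went the other way between these agents, with 103 and 103 counts in MMS, 42 and 43 in PLM, 25 and 28 in HU, 6 and 20 in CPT, and 6 and 8 in untreated cells; the log2 difference of PLM over MMS was -1.36 ± 0.34. SPNCRNA.1259, with 1 and 0 counts in untreated cells, had 56 and 93 in MMS, 63 and 69 in PLM, 23 and 38 in HU, and 23 and 8 in CPT.

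The members switched on by MMS alone were SPNCRNA.744, SPNCRNA.818, SPNCRNA.999, SPNCRNA.860, SPNCRNA.842 and SPNCRNA.802. SPNCRNA.744 had 80 and 61 counts in MMS, 40 and 35 in PLM, 9 and 14 in HU, 13 and 0 in CPT, and 0 and 12 in untreated cells, and MMS exceeded HU by 2.72 ± 0.51 (log2, SE). SPNCRNA.860 met the threshold in MMS only narrowly: it had 36 and 51 counts there, 41 and 36 in CPT, 26 and 46 in HU, 19 and 57 in PLM, and 6 and 0 in untreated cells. On the CPM scale its MMS libraries overlapped those of the other 3 agents. Of the 29 members with a single agent, the libraries of that agent overlapped those of another agent in 6. Besides SPNCRNA.860 these were SPNCRNA.842 (MMS, overlapping PLM), SPNCRNA.827 and SPNCRNA.663 (PLM, overlapping MMS), SPNCRNA.451 (HU, overlapping MMS) and SPNCRNA.1031 (CPT, overlapping PLM).

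HU alone switched on SPNCRNA.313 and SPNCRNA.451. SPNCRNA.313 had 67 and 45 counts in HU, 16 and 26 in MMS, 29 and 14 in PLM, 15 and 0 in CPT, and 12 and 7 in untreated cells. HU exceeded CPT by 2.84 ± 0.57 (log2, SE); the log2 difference of PLM over HU was -1.35 ± 0.47, and -1.03 without the first HU library or -0.86 without the second PLM library. SPNCRNA.451 had 47 and 38 counts in HU, 20 and 42 in MMS, 17 and 20 in PLM, 17 and 5 in CPT, and 3 and 7 in untreated cells, and its HU and MMS libraries overlapped.

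CPT alone switched on meu16 (SPNCRNA.928) and SPNCRNA.1031. meu16 had 63 and 46 counts in CPT, 26 and 30 in HU, 22 and 15 in MMS, 26 and 23 in PLM, and 12 and 4 in untreated cells. SPNCRNA.1031 had 50 and 47 counts in CPT, 8 and 13 in HU, 20 and 14 in MMS, 24 and 50 in PLM, and 2 and 5 in untreated cells, so CPT and PLM overlapped. For SPNCRNA.1031 the log2 difference of HU over CPT was -2.27 ± 0.50 (SE). The meu16 differences were smaller, -1.50 ± 0.44 for MMS over CPT and -1.02 ± 0.41 for HU over CPT.

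The 19 members switched on by PLM alone were SPNCRNA.1578, SPNCRNA.1078, SPNCRNA.648, SPNCRNA.1301, SPNCRNA.943, SPNCRNA.517, SPNCRNA.1294, SPNCRNA.1135, SPNCRNA.1001, SPNCRNA.1418, SPNCRNA.948, SPNCRNA.663, SPNCRNA.1645, SPNCRNA.392, SPNCRNA.1323, SPNCRNA.1703 (prl105), SPNCRNA.1176, SPNCRNA.480 and SPNCRNA.827. Their libraries held 34 to 86 counts in PLM, with medians of 49.5 in PLM, 23.5 in MMS, 20 in HU, 10 in CPT and 5 in untreated cells. SPNCRNA.1578 had 0 counts in both untreated libraries and 73 and 82 in PLM, at least 49.8-fold higher with a floor of 3 counts over the untreated group. prl105 had 36 and 50 counts in PLM, 26 and 33 in HU, 1 and 3 in MMS, 4 and 2 in CPT, and 0 and 2 in untreated cells. PLM exceeded MMS by 4.26 ± 0.73 for prl105 (log2, SE). SPNCRNA.1135 was lowest in HU among the agents, with 46 and 62 counts in PLM, 29 and 11 in MMS, 3 and 4 in HU, 23 and 20 in CPT, and 4 and 5 in untreated cells; PLM exceeded HU by 3.91 ± 0.62. SPNCRNA.663 had 1 and 1 counts in CPT, below the 4 and 16 of untreated cells, and 43 and 51 in PLM, a difference between the agents of 5.34 ± 0.80.

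Counted over the 6 pairs of agents, the members lean the way they were chosen: 38 of 48 entered through PLM and 5 through CPT, and each passed the low-count filter through the agent where it is high. These counts are therefore a description, and nothing is read from their excess over the share of all features. All 48 entered the fit. PLM was higher than CPT for 40 members and lower for 1, where 39.4% of all features were higher and 40.7% lower. PLM was higher than HU for 33 and lower for 2 (33.3% and 37.8% of all features), and higher than MMS for 25 and lower for 4 (36.2% and 35.8%). MMS was higher than CPT for 26 and lower for 3 (38.2% and 38.7%), MMS higher than HU for 14 and lower for 7 (34.2% and 39.4%), and HU higher than CPT for 17 and lower for 3 (36.5% and 36.2%). Median log2 differences over the members were 2.01, 1.14 and 0.91 for PLM over CPT, HU and MMS, 1.19 and 0.48 for MMS over CPT and HU, and 0.88 for HU over CPT, where the medians over all features lay between -0.04 and 0.01. These are counts at an adjusted p under 0.05 by edgeR's quasi-likelihood test, with p-values adjusted over all 5734 features. The 35 PLM-HU calls were 22 and 23 without the first and second HU library and 23 and 22 without the first and second PLM library; the 29 PLM-MMS calls were 19 and 18 without the first and second MMS library and 17 without the second PLM library. By library totals alone, MMS was higher than HU for 11 members and lower for 9; by quantile normalization, HU was higher than CPT for 9 and lower for 4, and PLM was higher than MMS for 12 and lower for 7.

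**Figure D3:**
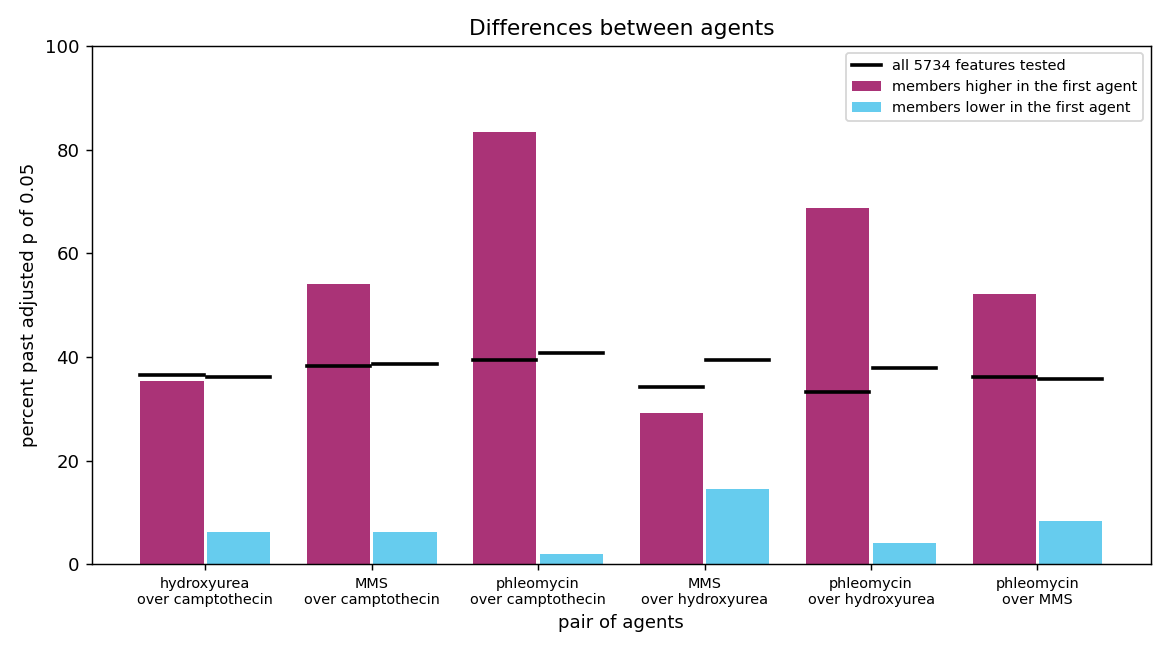
Percent of the 48 members higher (purple) or lower (blue) in the first-named agent at an adjusted p under 0.05 for the 6 pairs of agents; black lines give the percent of all 5734 features tested. The bar for members higher in PLM than in CPT (40) is the tallest; the members were chosen from the same counts.

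The coding genes that overlap or flank the members were not used to choose them, so their change against untreated cells could be tested. For the 49 that overlap a member, reads may not be told apart from the member's. The counts of those 49 may therefore not be independent of the choice. Of 141 such genes, 131 were tested. In CPT 47 rose (35.9%) and 45 fell (34.4%), in HU 56 (42.7%) and 53 (40.5%), in MMS 51 (38.9%) and 57 (43.5%), and in PLM 56 (42.7%) and 57 (43.5%), by edgeR at an adjusted p under 0.05. All features gave 35.2% and 35.9% in CPT, 40.3% and 38.8% in HU, 39.5% and 40.9% in MMS, and 42.2% and 40.7% in PLM, so the neighbours of all members together changed at about the background share. With library totals alone the HU split was 74 higher and 38 lower (66.1% of those called higher), where that of all features was 3112 and 1485 (67.7%). Limited to neighbours of members switched on by the agent, 9 of 14 tested rose in CPT (64.3%) and 4 fell (28.6%). In HU 21 of 41 rose (51.2%) and 17 fell (41.5%). In MMS these were 19 and 23 of 53 (35.8% and 43.4%), and in PLM 45 and 47 of 107 (42.1% and 43.9%). The shares that rose in CPT and HU thus lay above those of all features, which was not tested.

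Single pairs of a member and an antisense gene differed in direction. SPNCRNA.923 lies opposite ctr5, a subunit of the copper transporter, which covers 62.9% of it. ctr5 averaged 284.9 ± 1.71 CPM in CPT, 245.4 ± 3.001 in HU, 90.1 ± 0.178 in MMS, 36.3 ± 0.521 in PLM and 185.1 ± 2.45 in untreated cells (SD, n = 2 each). It rose by 0.62 ± 0.028 in CPT and 0.41 ± 0.028 in HU, and fell by 1.04 ± 0.031 in MMS and 2.35 ± 0.035 in PLM (log2, SE; adjusted p = 3.46e-29, 2.65e-20, 5.51e-39 and 8.64e-56, edgeR). The agents in which SPNCRNA.923 was switched on were those in which ctr5 fell.

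SPNCRNA.1031 and meu16 each had their highest mean in CPT, as did the gene on the other strand. wsp1, the actin-nucleation factor of the WASP family that covers 89.2% of SPNCRNA.1031, averaged 34.4 ± 0.109 CPM in CPT, 3.55 ± 0.174 in HU, 1.48 ± 0.519 in MMS, 1.15 ± 0.000149 in PLM and 1.48 ± 0.283 in untreated cells (SD, n = 2 each). It rose by 4.54 ± 0.16 in CPT and 1.27 ± 0.20 in HU (log2, SE; adjusted p = 1.99e-34 and 6.48e-08, edgeR); the HU call was lost by quantile normalization (0.28). mde6 covers 97.8% of meu16 and averaged 104.8 ± 2.73 CPM in CPT, 36.9 ± 1.09 in HU, 23.7 ± 0.00743 in MMS, 31.5 ± 0.562 in PLM and 13.97 ± 1.27 in untreated cells (SD, n = 2 each). It rose in all 4 agents, by 2.90 ± 0.063 in CPT, 1.40 ± 0.067 in HU, 0.76 ± 0.071 in MMS and 1.17 ± 0.068 in PLM (adjusted p = 3.11e-46, 7.18e-28, 6.84e-15 and 5.19e-24, edgeR). In the other agents SPNCRNA.1031 did not run with wsp1: it averaged 0.245 CPM in HU, 0.431 in MMS, 0.861 in PLM and 0.0841 in untreated cells, while wsp1 in MMS and PLM did not pass the test. By contrast, meu16 kept the order of mde6 over all 5 groups. It averaged 1.32 CPM in CPT, 0.653 in HU, 0.582 in PLM, 0.47 in MMS and 0.202 in untreated cells. How many of the reads of SPNCRNA.1031 and meu16 came from the other strand was not tested.

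**Figure D4:**
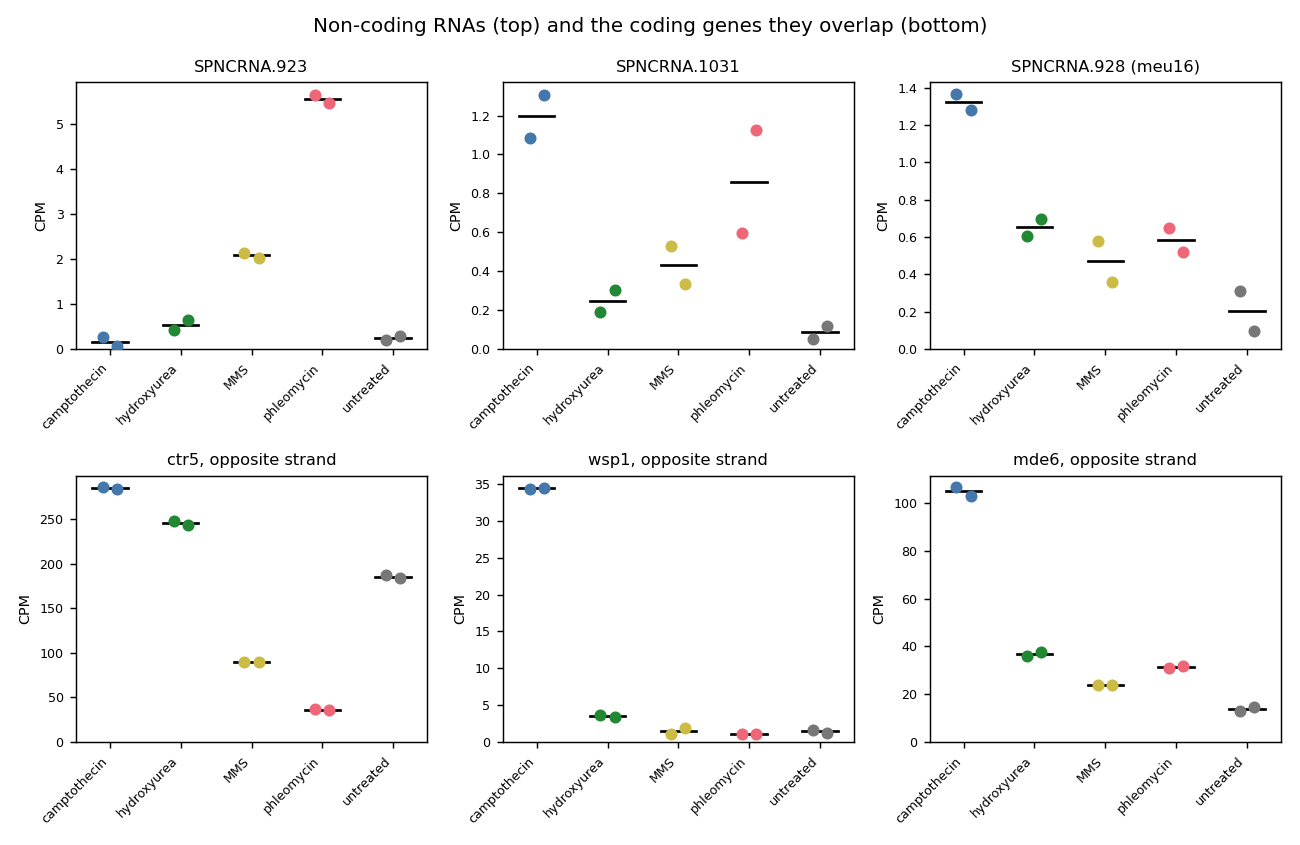
CPM of 3 members (top) and of the coding gene on the opposite strand of each (bottom) in the 10 libraries, with points for libraries and bars for group means. SPNCRNA.923 is highest where ctr5 is lowest (PLM), while SPNCRNA.1031 and wsp1, and meu16 and mde6, are highest in CPT.

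Of the 49 coding genes that overlap a member, 4 had 0 counts in all 10 libraries. Among these, pdc102 covers most of prl107 and hry1 covers part of prl108, and those 2 coding genes are listed at 0 throughout.

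prl105, prl107 and prl108 lie near 1 end of chromosome I, with 17, 8 and 22 coding genes between them and the end, of 2333 on that chromosome. SPNCRNA.1301 lies 15 coding genes from an end of chromosome II, and SPNCRNA.451 and SPNCRNA.1294 lie 7 and 19 from the 2 ends of chromosome III. The share of other features lying as near an end was not counted, so these places are a description only. SPAC186.08c, beside prl107, averaged 9.42 ± 1.31 CPM in CPT, 6.04 ± 0.0176 in HU, 2.63 ± 0.208 in MMS, 27.65 ± 0.0403 in PLM and 1.03 ± 0.323 in untreated cells (SD, n = 2 each). It rose by 4.73 ± 0.17 in PLM and 3.18 ± 0.18 in CPT, and by 1.34 ± 0.22 in MMS (log2, SE; adjusted p = 2.57e-35, 3.29e-24 and 1.74e-07, edgeR); the MMS call was lost by quantile normalization (0.46). mel1, an alpha-galactosidase gene beside prl108, rose by 5.13 ± 0.14 in PLM and also by 4.18 ± 0.14 in MMS, in which prl108 stayed low (adjusted p = 6.44e-42 and 1.04e-35, edgeR). On the other side of prl108, sul2, a sulfate transporter gene, fell by 1.64 in CPT, 1.56 in HU, 1.85 in MMS and 2.93 in PLM (all adjusted p at or under 2.67e-47, edgeR). Beside prl105, SPAC869.01 rose by 5.36 ± 0.37 in PLM and 4.29 ± 0.40 in HU (adjusted p = 8.35e-21 and 4.89e-15, edgeR). SPAC869.01 also rose in MMS, in which prl105 stayed low, but that call was lost by quantile normalization (0.35). Its log2 rise in MMS was 1.31 without the second MMS library and 1.22 without the first untreated library.

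**Figure D5:**
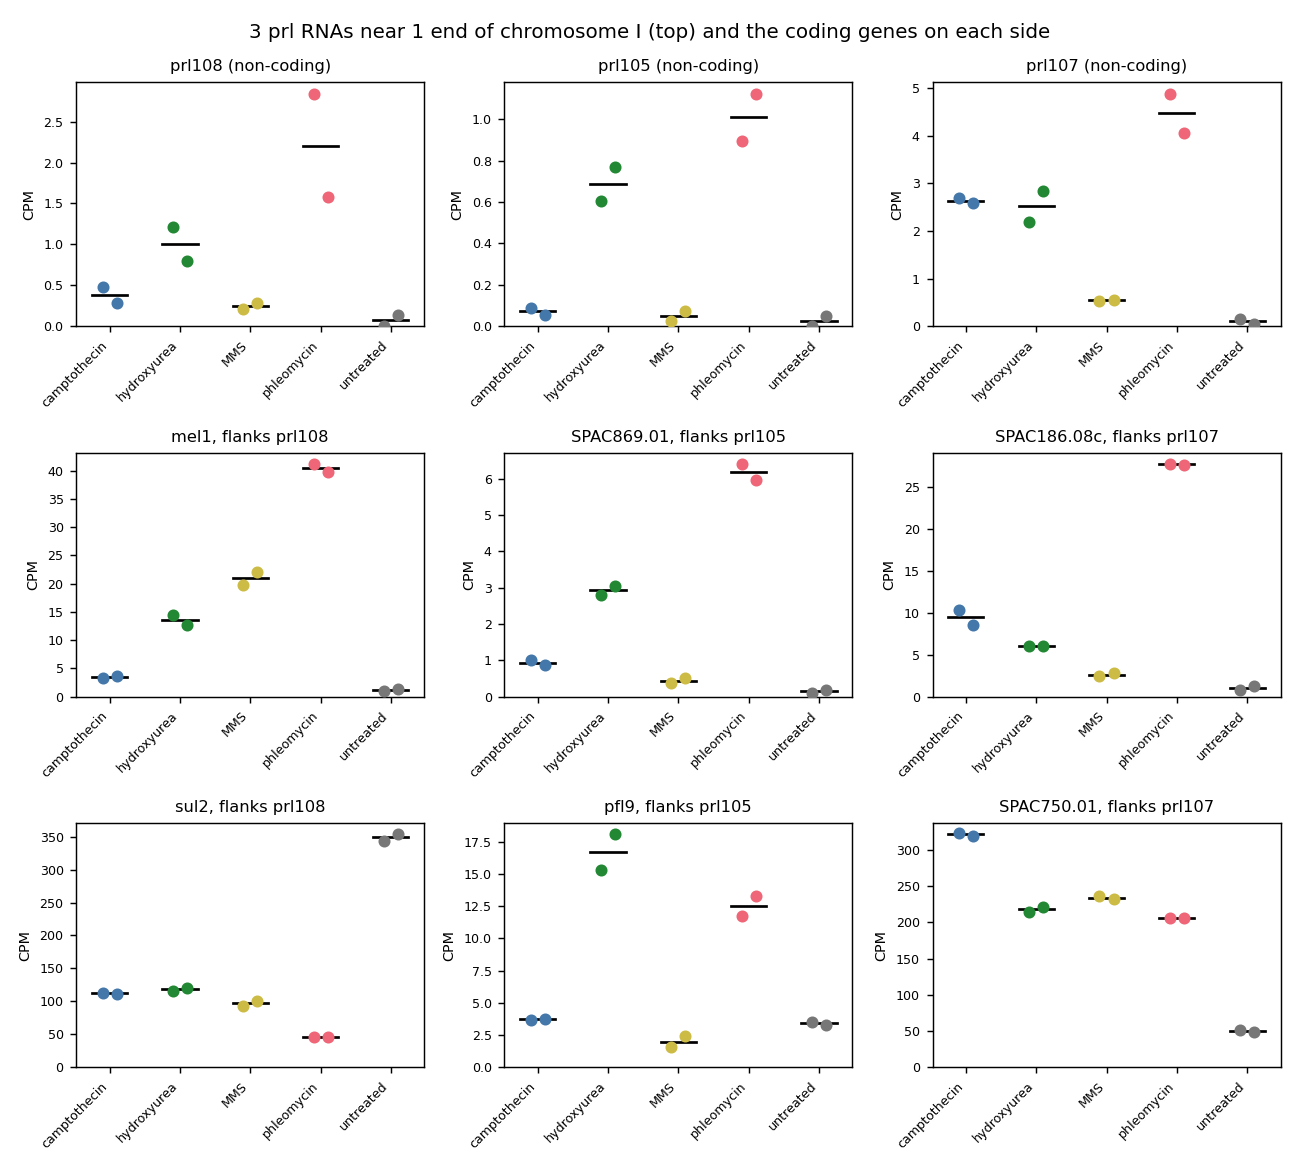
CPM of prl108, prl105 and prl107 (top row) and of the coding genes on both sides of each (lower rows) in the 10 libraries, with points for libraries and bars for group means. mel1 is highest in PLM and sul2 lowest in PLM, on the 2 sides of prl108.

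SPNCRNA.313, which overlaps no matched feature of the count table, lies beside gpd3, a glyceraldehyde-3-phosphate dehydrogenase gene on the same strand. gpd3 rose by 1.82 ± 0.024 in CPT, 3.05 ± 0.023 in HU, 5.40 ± 0.024 in MMS and 3.56 ± 0.023 in PLM (log2, SE; adjusted p = 5.44e-58, 5.67e-71, 3.76e-85 and 5.30e-75, edgeR), while SPNCRNA.313 reached its threshold only in HU. SPNCRNA.869 lies partly opposite SPAPB1A11.02, which covers 13.3% of it and averaged 1.33 ± 0.0256 CPM in CPT, 5.03 ± 0.0953 in HU, 2.31 ± 0.39 in MMS, 8.10 ± 1.37 in PLM and 0.588 ± 0.0259 in untreated cells (SD, n = 2 each). It rose most in PLM, by 3.77 ± 0.26, and in HU, by 3.09 ± 0.27 (log2, SE; adjusted p = 6.21e-21 and 2.58e-16, edgeR), the 2 agents that switched on SPNCRNA.869. spp27, which covers 78.7% of SPNCRNA.1233 on the opposite strand, fell by 0.57 ± 0.041 in HU, 0.97 ± 0.042 in MMS and 1.57 ± 0.044 in PLM, and by 0.18 ± 0.040 in CPT (adjusted p = 6.07e-20, 2.35e-30, 9.09e-41 and 8.00e-05, edgeR). As with ctr5, the fall was largest where the member was highest. grt1, opposite 51.4% of SPNCRNA.1301, rose by 1.43 ± 0.22 in HU and 1.38 ± 0.22 in PLM and fell by 0.67 ± 0.26 in MMS (adjusted p = 3.74e-08, 8.39e-08 and 0.0188, edgeR). hsp3101, a gene of the DJ-1 family beside SPNCRNA.451, rose most in MMS, by 3.09 ± 0.24 (adjusted p = 1.91e-18, edgeR), whereas SPNCRNA.451 had its highest mean in HU. tpx1, the peroxiredoxin gene that covers 2.62% of SPNCRNA.1259, rose most in MMS, by 2.43 ± 0.016 (adjusted p = 3.33e-75, edgeR). No matched coding gene lies opposite SPNCRNA.1259, but matched features together cover 83.1% of it, so its reads may not be told apart from theirs.

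Genes that limit non-coding transcripts were counted from a list of 66, of which 64 were tested. By edgeR at an adjusted p under 0.05, 17 rose and 34 fell in CPT (26.6% and 53.1%), 17 and 35 in HU (26.6% and 54.7%), 21 and 35 in MMS (32.8% and 54.7%), and 18 and 35 in PLM (28.1% and 54.7%), with median log2 changes of -0.09, -0.14, -0.16 and -0.22 where the medians of all features were 0.00 to 0.02. With library totals alone the HU count turned to 29 higher and 22 lower, and MMS stood at 26 higher and 31 lower. Among 25 exosome and MTREC genes, 6 rose and 16 fell in CPT (24% and 64%), 4 and 14 in HU (16% and 56%), 7 and 16 in MMS (28% and 64%), and 4 and 16 in PLM (16% and 64%). The shares of all features that fell were 35.9%, 38.8%, 40.9% and 40.7%. For these genes in HU, library totals gave 12 higher and 8 lower. The fall was not limited to them. Among 15 genes of chromatin over transcribed regions, 4 rose and 8 fell in CPT, and 1 and 12 in HU. In MMS these were 2 and 10, and in PLM 2 and 12. Library totals gave 3 higher and 9 lower in HU. Among 8 genes of termination and decay, 1 rose and 6 fell in CPT, and 1 and 5 in HU. In MMS these were 4 and 4, and in PLM 1 and 5. mtr4, the exosome helicase, averaged 249.5 ± 2.42 CPM in CPT, 237.8 ± 2.09 in HU, 192.9 ± 4.25 in MMS, 155.2 ± 2.02 in PLM and 360.1 ± 9.27 in untreated cells (SD, n = 2 each). It fell by 0.53 in CPT, 0.60 in HU, 0.90 in MMS and 1.21 in PLM on the log2 scale (adjusted p = 3.38e-28, 5.67e-31, 3.81e-40 and 5.75e-47, edgeR). Among 16 genes of RNA interference and H3K9 methylation, 6 rose and 4 fell in CPT (37.5% and 25%), 11 and 4 in HU (68.8% and 25%), 8 and 5 in MMS (50% and 31.2%), and 11 and 2 in PLM (68.8% and 12.5%). All features rose in 35.2%, 40.3%, 39.5% and 42.2%, so the CPT share was near the background; with library totals CPT had 4 of each. clr4, the H3K9 methyltransferase gene, rose by 0.47 ± 0.065 in HU, 0.25 ± 0.067 in MMS and 0.70 ± 0.065 in PLM (adjusted p = 2.57e-09, 0.000486 and 3.14e-15, edgeR), and was at 0.02 ± 0.068 in CPT; other features cover 54.2% of clr4 and 26.5% of mtr4. The list's largest falls were those of mtr4 and of hip1, a histone chaperone subunit (-0.46 ± 0.051), in CPT; rik1, a subunit of the Clr4 complex (-0.70 ± 0.13), and mtr4 in HU; air1 (-1.21 ± 0.047) and alp13 (-0.92 ± 0.040) in MMS; and mtr4 and lsm1 (-1.08 ± 0.047) in PLM. Other features cover 99.98% of rik1. The largest rises were those of erh1, the partner of the RNA-elimination factor Mmi1 (1.24 ± 0.20), and mtr3 (0.95 ± 0.032) in CPT, and tas3 (0.83 ± 0.047) and clr4 in PLM. In HU and MMS they were those of erh1 (0.75 ± 0.21 and 0.91 ± 0.21) and dcp2 (1.20 ± 0.53 and 1.18 ± 0.54). dcp2 averaged only 0.653 ± 0.2 CPM in HU, 0.643 ± 0.0978 in MMS and 0.281 ± 0.0313 in untreated cells (SD, n = 2 each). Its calls were lost without any of several single libraries: in HU without HU library 1 (0.85), untreated library 1 (1.10) or untreated library 2 (1.33), and in MMS without MMS library 1 (1.02), MMS library 2 (1.33), untreated library 1 (1.07) or untreated library 2 (1.30). By quantile normalization erh1 and dcp2 in HU turned to -0.03 and -0.05, and their MMS calls were lost (0.33 and 0.02). The DESeq2 Wald test made neither dcp2 call (1.20 in HU and 1.19 in MMS). Whether these changes bear on the members was not tested.

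At the lower limit of the agents' counts, the members just inside were SPNCRNA.802 (81 in MMS), SPNCRNA.827 (81 in PLM), SPNCRNA.1176 and SPNCRNA.480 (82 each in PLM) and SPNCRNA.842 (84 in MMS). Just outside stood SPNCRNA.1112 and SPNCRNA.1225 (78 each in PLM), SPNCRNA.654 (76 in PLM), SPNCRNA.1204 (75 in PLM) and SPNCRNA.1163 (72 in MMS). At the untreated limit, 12 members had 18 to 20 counts, among them SPNCRNA.923 and SPNCRNA.1040, while 8 features left out had 21 to 23, among them SPNCRNA.1122 with 382 counts in MMS. The mirrored rule, chosen after the values were seen, asked for 80 or more untreated counts and 20 or fewer in an agent: of 615 features of this numbering with 80 or more untreated counts it found 1 in CPT, 1 in HU, 2 in MMS and 0 in PLM.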

How the data were processed

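RNA-seq of 10 libraries was analysed from the counts deposited by the authors: whole-number read counts per feature for 6661 features, not normalized. Per the submitters' processing notes, HISAT2 and StringTie were used; the sources used here give no version, genome build or strand setting. Library totals ran from 37301356 to 48598533 counts. The members and gene lists were chosen with earlier results of these data known.

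One model of 5 groups was fitted with edgeR 4.0.16 (quasi-likelihood, TMM factors, filterByExpr, R 4.3.3), leaving 5 residual degrees of freedom; p-values were adjusted by Benjamini-Hochberg over 5734 features, with 0.05 as threshold, and were two-sided. The script was tested on simulated data. Levels are CPM with TMM-scaled library sizes. Ratios to untreated cells carry 95% counting intervals, which cover counting error only. Against 0 counts, a floor of 3 counts per group gave a lower bound. Names, overlaps and order came from RefSeq ASM294v3: 6540 IDs matched by locus tag, 4 by synonym and 117 not. Overlaps and neighbours were sought among the matched features alone. Copies were sought with blastn 2.17.0+.

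Named were the 6 members highest in each agent, the 3 highest per combination of agents, the 3 largest differences past the threshold per agent pair and direction (groups not overlapping, at least 1 CPM), the 5 on each side of the limits, members with a symbol, neighbours of named members, and per agent the 2 largest rises and 2 largest falls among listed control genes. Alternatives were DESeq2 size factors and the DESeq2 1.42.0 Wald test, library totals, quantile normalization with limma 3.58.1, no filter, only the groups compared, a replicate block, and single libraries left out. Promoters were read from the assembly, since no promoter table was at hand. Equal replicate numbers marked no shared deviation.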

Additional observations from a re-analysis of the deposited data

How the results depend on the processing

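The counts of members depend on the limits that define them. With an untreated limit of 10 counts, 2 members were switched on by CPT, 6 by HU, 6 by MMS and 14 by PLM, of 19 in all; with 40 counts these were 28, 65, 69 and 107, of 125. With an agent limit of 160 counts they were 2, 2, 5 and 12, of 13. Without features covered for 75% or more they were 1, 7, 7 and 12, of 16. PLM kept the highest count in each. Limits on counts scaled to library size gave 45 members, all among the 48. With 1 library left out the counts ran from 5 to 10 for CPT, 14 to 23 for HU, 16 to 28 for MMS, 35 to 53 for PLM and 46 to 62 for any agent.

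Between agents, quantile normalization gave 13 calls for HU over CPT, 18 for MMS over CPT, 21 for PLM over HU and 19 for PLM over MMS, and the DESeq2 Wald test gave 19 for PLM over MMS; the cause was not tested. With 1 library left out, the lone library being assumed to vary like the other groups, calls ran from 15 to 21 for HU over CPT, 22 to 29 for MMS over CPT, 36 to 41 for PLM over CPT, 16 to 22 for MMS over HU, 22 to 36 for PLM over HU and 17 to 30 for PLM over MMS. Neighbour genes called ran from 86 to 93 in CPT, 102 to 109 in HU, 103 to 108 in MMS and 107 to 113 in PLM, and control genes from 42 to 50, 48 to 53, 52 to 56 and 52 to 55.

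Same-numbered libraries of different groups correlated between -0.0242 and 0.0376 in their deviations from the group means, so no shared deviation was seen. Whether they shared a culture day or batch is not given in the labels. With the replicate number as a block, calls were 20 for HU over CPT, 25 for MMS over CPT, 40 for PLM over CPT, 19 for MMS over HU, 32 for PLM over HU and 26 for PLM over MMS, and no count of calls, neighbours and control genes included, moved by over 1.5 times. Library totals alone moved the median of all features to 0.21 in HU (log2), against 0.02 with TMM factors. Of the genes named one by one, only erh1 and dcp2 in HU reversed, to -0.0318 and -0.0497 under quantile normalization.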
